A study of Homo sapiens with 12 samples.

Results

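The amino acid transporter genes SLC7A5, SLC7A1 and SLC6A9 held 438 of the 26351 peaks at which the nuclear RNA-binding protein NONO was crosslinked to RNA in 22Rv1, an established human prostate cancer cell line. A peak was taken for a gene when the authors' annotation gave that gene's name, which assigned 399 peaks to SLC7A5, 23 to SLC7A1 and 16 to SLC6A9. The contacts were mapped by eCLIP, in which UV light (400 mJ here) joins proteins to the RNA they touch, NONO is pulled down with an antibody and the attached RNA is sequenced and set against an input library. Cells grown for 40 h received 0.04% DMSO alone, 20 µM SKBG-1(R) or 20 µM SKBG-1(S), each compound in 0.04% DMSO, for 4 h. SKBG-1 is a small molecule directed at NONO, and R and S name its stereoisomers. Each of the 3 groups had 2 replicates and each replicate gave 1 peak list. Whether the replicates were separate cultures is not stated, so every p-value here reflects only how far these lists vary, and that variation may be technical.

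Cells take up most amino acids through transporters of the solute carrier (SLC) superfamily. SLC7A5 encodes LAT1, the light chain that, bound to the heavy chain SLC3A2, exchanges glutamine for leucine and other large neutral amino acids, and the leucine brought in feeds the growth kinase complex mTORC1. SLC7A1 encodes CAT1, the main carrier of arginine and lysine, and SLC6A9 encodes GlyT1, a sodium-driven glycine carrier. LAT1 is studied in prostate cancer as a route of leucine supply. NONO belongs, with SFPQ and PSPC1, to a family of proteins that bind RNA and DNA and gather in paraspeckles, and in mouse cells a nuclear-retained transcript of the arginine carrier gene Slc7a2 is among the RNAs it binds.

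The lists differed in length, from 669 peaks (DMSO replicate 1) to 14847 (SKBG-1(R) replicate 2), and every replicate 2 list was longer than its replicate 1 list. Numbers of peaks are therefore also given per 10000 peaks of the list. All peaks had, by the authors' values, at least 8-fold enrichment over input and a −log10 p of at least 3. The lists hold no read counts, which leaves sequencing depth unknown, and a gene with 0 peaks may still be bound. A peak shows contact above input and not expression, so the lists do not check the cell type.

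The sequence under a peak shows what kind of RNA NONO was crosslinked to. Printed are 3 peaks of SLC6A9, all from SKBG-1(R) replicate 2, in which an exon of the transcript sequences at hand covers at least 42 nt. Peaks that the authors classed as UTR were left out, among them 1 SLC6A9 peak of SKBG-1(S) replicate 2. The 3 sequences are given 5′ to 3′ on the strand of SLC6A9 (the minus strand of chromosome 1, GRCh38), and capitals mark runs of 3 or more G. The intron 1 sequence covers chr1:44030443-44030553, all but 3 nt of a 114-nt peak. The coding exon sequence covers chr1:44017047-44017088, the 42 nt of a peak that lie in a coding exon of another SLC6A9 transcript. The distal sequence is the whole 89-nt peak chr1:43995630-43995718, 35793 nt from the gene start, which the authors annotated as a distal intron. It lies past the last exon of the reference transcript, which ends 34984 nt from the start, and so in none of that transcript's introns.
SLC6A9 intron 1 peak: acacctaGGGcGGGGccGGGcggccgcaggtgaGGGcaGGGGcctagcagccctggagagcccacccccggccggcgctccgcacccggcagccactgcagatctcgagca
SLC6A9 coding exon peak: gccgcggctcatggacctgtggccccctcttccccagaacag
SLC6A9 distal peak: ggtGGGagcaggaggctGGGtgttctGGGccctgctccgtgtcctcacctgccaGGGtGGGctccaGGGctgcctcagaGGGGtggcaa

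The intron 1 and distal sequences were read from transcripts of genes on the opposite strand, AL139220.2 and CCDC24, turned to the strand of SLC6A9. They held 5 and 7 G runs, and the coding stretch held 0. Their GC contents were 76.6%, 69.0% and 69.7% in the order printed. For comparison, 2991 peaks over all genes had at least 42 nt covered by 1 exon, on either strand. The central 42 nt of the covered stretch, not of the whole peak, had a median GC content of 73.8%. Of the 5 motifs searched on both strands, GGGG occurred in 56.5% of those windows on the strand of the peak and in 74.0% on either strand. It occurred 2 times in the intron 1 sequence, 1 time in the distal one and 0 times in the coding one. Its reverse complement occurred 2, 0 and 3 times in the same order, counting overlapping matches. The intron 1 and distal sequences, of 111 and 89 nt, are longer than the 42-nt windows, so a match is likelier in them. The motif AGGGA occurred in 7.86% of the windows on that strand and 15.4% on either, and CTCTC in 5.35% and 11.2%. The splice donor motif GTGAGT occurred in 0.97% and 1.3%, and its variant GTAAGT in 0.0669% and 0.1%. On the peak's strand of the printed sequences none of these 4 was found, and the reverse complement of CTCTC occurred 1 time in the intron 1 sequence. Of the SLC7A5 and SLC7A1 peaks, which are intronic, no sequence was used here.

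SLC7A5 (ENSG00000103257; chromosome 16, 87830023 to 87869488, minus strand, GRCh38) was among the genes with most NONO peaks in every list. The DMSO lists held 10 and 50 of its peaks (replicates 1 and 2), those of SKBG-1(R) 12 and 225, and those of SKBG-1(S) 30 and 72. Per 10000 peaks of the list this was 149.5 and 135.9 under DMSO, 61.4 and 151.5 under SKBG-1(R) and 242.5 and 181.5 under SKBG-1(S). Both SKBG-1(S) lists lay above the other 4, and SKBG-1(R) replicate 1 lay below all others. By number of peaks SLC7A5 ranked 9 of 238 and 7 of 811 genes under DMSO, 28 of 505 and 9 of 1296 under SKBG-1(R), and 3 of 366 and 3 of 924 under SKBG-1(S). More contact by NONO and more of the RNA, which lets more peaks pass the limits, cannot be told apart in these lists.

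**Figure D1:**
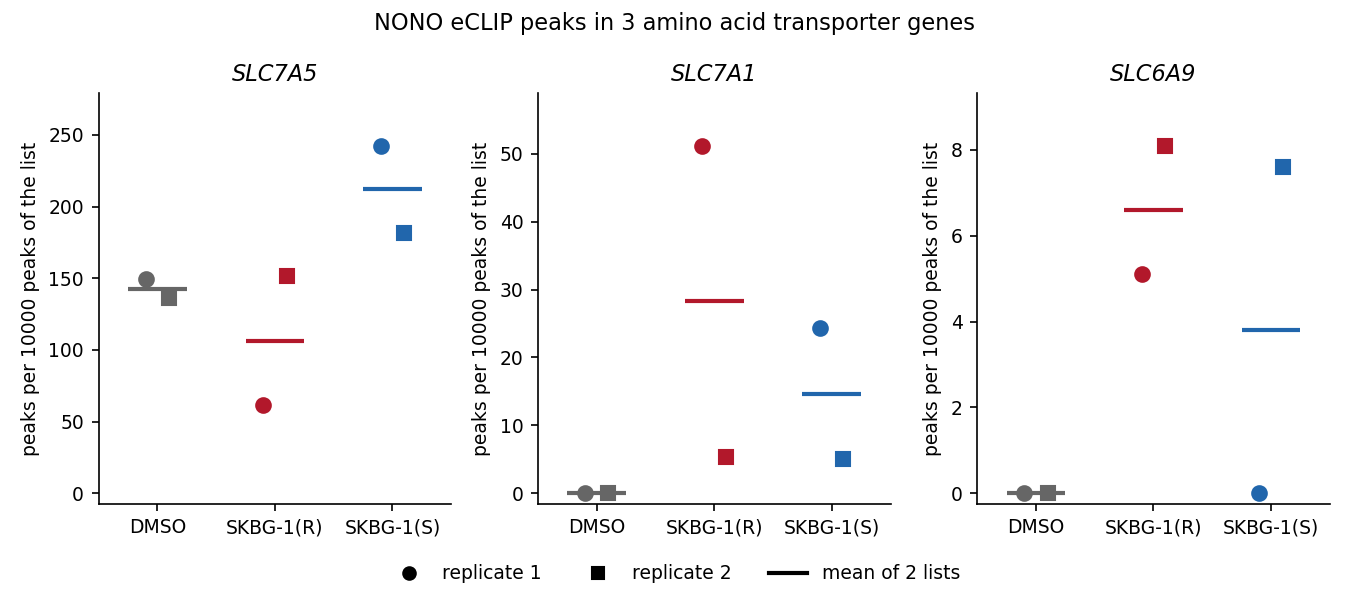
Peaks per 10000 peaks of the list (vertical axis) in SLC7A5, SLC7A1 and SLC6A9 for each of the 6 lists, by treatment. Circles are replicate 1, squares replicate 2 and bars the mean of 2 lists; SLC7A5 is highest in the SKBG-1(S) lists (242.5 and 181.5), and SLC7A1 and SLC6A9 are at 0 in both DMSO lists.

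The peaks of SLC7A5 filled the first pair of introns and were absent from the rest of the gene. Intron 2, of 10568 nt, held 276 of 399 peaks (69.2%) and intron 1, of 17035 nt, held 123 (30.8%), or 26.12 and 7.22 peaks per kb over all lists. No peak lay in an exon, within 4 kb of the gene start or beyond 28 kb from it, although the gene runs for 39466 nt. Without SKBG-1(R) replicate 2, the longest list, 139 of the other 174 peaks (79.9%) lay in intron 2.

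The window of 22 to 25 kb from the gene start held 140 peaks (35.1%), with 7 of 10 and 25 of 50 of the DMSO peaks, 3 of 12 and 56 of 225 of the SKBG-1(R) peaks, and 16 of 30 and 33 of 72 of the SKBG-1(S) peaks. In every list, then, this stretch of 3 kb held 24.9% to 70.0% of the gene's peaks, with the SKBG-1(R) lists lowest at 25% and 24.9%. A smaller group of 53 peaks (13.3%) lay 12 to 15 kb from the start, in intron 1, with 0 and 5 peaks in the DMSO lists, 4 and 35 in the SKBG-1(R) lists and 3 and 6 in the SKBG-1(S) lists. The smallest group, 6 to 8 kb from the start, held 26 peaks (6.5%), of which DMSO replicate 1 had 0. The next 1 kb, from 8 to 9 kb, held 12 more, and 9 to 10 kb held 0. The edges of these windows were set with the peaks known, and the counts depend on them.

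**Figure D2:**
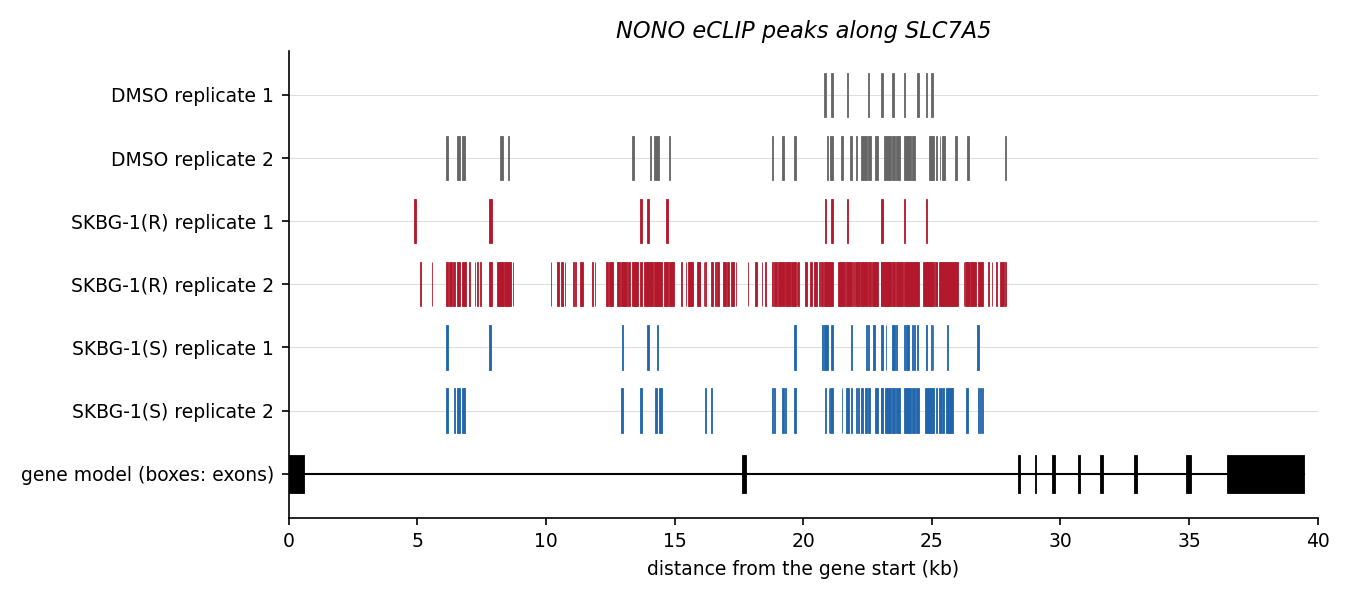
NONO peaks along SLC7A5 in each list (rows, coloured by treatment) against the distance from the gene start in kb, with the exons of the reference transcript as black boxes. Peaks stop at about 28 kb, where intron 2 ends, and 276 of 399 lie in intron 2.

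Peaks that overlapped by at least 1 nt on the same strand were merged, which gave 162 regions in SLC7A5. Of these 102 (63.0%) held a peak in 1 list only, against 76.8% of the regions over all genes. Peaks of both DMSO lists were in 7 regions (4.32%), against 1.21% over all genes. All 6 lists had a peak in 5 (3.09%), against 101 of 16419 regions over all genes (0.615%). The 5 became 2 when an overlap needed 0.5 of the shorter peak, 1 with lists of equal size and 0 with a log2 enrichment of at least 4 or a −log10 p of at least 5. All 10 peaks of DMSO replicate 1, all 50 of DMSO replicate 2 and all 30 and 72 of the SKBG-1(S) lists lay in a region with a peak of another list, as did 11 of 12 peaks of SKBG-1(R) replicate 1. A region with a peak of the other list of the same treatment held 8 of 10 and 13 of 50 (26.0%) of the DMSO peaks, 11 of 12 and 33 of 225 (14.7%) of the SKBG-1(R) peaks, and 26 of 30 and 38 of 72 (52.8%) of the SKBG-1(S) peaks. SKBG-1(R) replicate 2 had 124 of 225 peaks in a region with a peak of any other list, and 101 of the 162 regions (62.3%) were its alone, near its share of 60.6% over all genes. No region of SLC7A5 was held by both lists of DMSO or both of SKBG-1(S) and by no other list. Over all genes 0.0183% and 0.11% of regions were. Of the 162 regions 1 (0.617%) was held by both SKBG-1(R) lists alone, near the 0.853% over all genes. That region, 87854733 to 87854865 in intron 1, had a log2 enrichment of 3.60 in replicate 1 and 4.20 in replicate 2.

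The 5 regions in all lists lay in intron 2, between 20792 and 25083 nt from the gene start. The strongest by its weakest list, at 87845446 to 87845577 on chromosome 16, had an authors' log2 enrichment over input of 3.90 and 3.81 in the DMSO lists, 3.75 and 5.08 in the SKBG-1(R) lists and 4.29 and 3.97 in the SKBG-1(S) lists. The next, at 87844405 to 87844750, joined 22 peaks and had 3.69 and 5.91, 3.53 and 5.36, and 4.45 and 4.37 in the same order. The groups overlap at both places, and SKBG-1(R) replicate 2 is highest at the first and DMSO replicate 2 at the second. The region at 87848326 to 87848496 had 3.18 and 3.27 in the DMSO lists, against 4.46 and 4.56 under SKBG-1(R) and 5.38 and 3.89 under SKBG-1(S). The value of a region in a list is the highest of the list's peaks there, and SKBG-1(S) replicate 2 also had a peak of 3.01 at this place, from 87848337 to 87848434, below both DMSO values. The groups therefore overlap here too, peak by peak. The last regions, 87846312 to 87846483 and 87848504 to 87848696, had 3.07 to 5.05 and 3.05 to 5.09 over the lists, and SKBG-1(R) replicate 2 was the highest at both. Because merging chains overlapping peaks, the lists need not share a single site in a region.

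SLC7A5 differed from the rest of the peaks in where it was bound. Distal introns, more than 500 nt from an exon by the authors' classes, held 100% and 96.0% of its peaks under DMSO, 100% and 96.4% under SKBG-1(R) and 96.7% and 98.6% under SKBG-1(S). All other peaks of the same lists had 35.5% and 59.5%, 39.1% and 64.3%, and 36.0% and 50.5%. The mean over lists was 97.95% for SLC7A5 and 47.46% for the others, higher in 6 of 6 lists (exact paired permutation test over lists, two-sided, p = 0.0312, the smallest 6 lists allow; Benjamini-Hochberg adjusted 0.0391 over 5 measures). The median peak of SLC7A5 lay at 0.553 of the length of the gene, against 0.138 for other peaks (6 of 6 lists, the same exact p and adjusted value). Its peaks were narrower, with a mean of the list medians of 54.58 nt against 67.33 nt (6 of 6 lists, the same exact p). Their median log2 enrichment, 3.80 against 3.71, was higher in 3 of 6 lists and did not pass the test (exact p = 0.531). These measures were chosen after the peaks of SLC7A5 had been seen, and 1 gene's peaks are set against those of many. The introns of 1 gene are the same in every list, so the lists were likely to lean the same way. How many other genes would reach the p of 0.0312 was not tested, so it does not show that SLC7A5 is unusual.

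**Figure D3:**
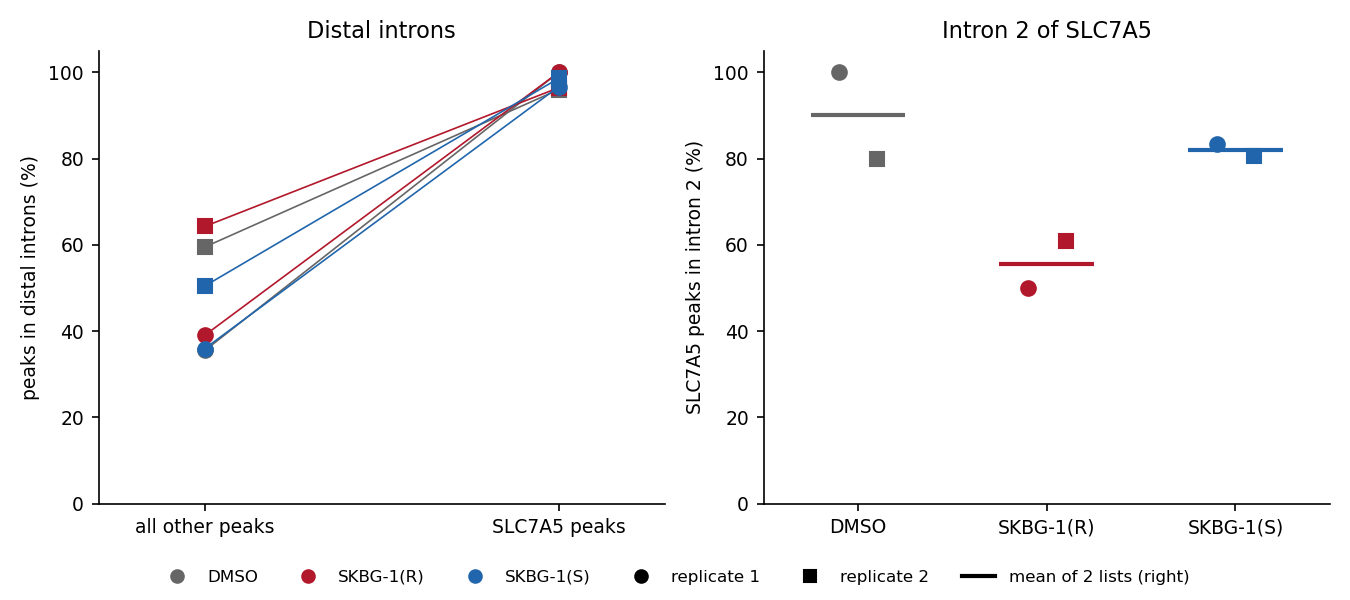
Left, the percentage of peaks in distal introns for all other genes' peaks and for SLC7A5, with a line joining the values of each list. Right, the percentage of SLC7A5 peaks in intron 2 by list, with bars for the mean of 2 lists; the SKBG-1(R) lists are at 50.0% and 60.9% and the other 4 at 80.0% or more.

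A smaller share of the SLC7A5 peaks lay in intron 2 in the SKBG-1(R) lists, a measure added after the peaks had been seen. Intron 2 held 10 of 10 (100%, 95% Wilson interval 72.2 to 100) and 40 of 50 (80.0%, 67.0 to 88.8) of the DMSO peaks. It held 6 of 12 (50.0%, 25.4 to 74.6) and 137 of 225 (60.9%, 54.4 to 67.0) of the SKBG-1(R) peaks. It held 25 of 30 (83.3%, 66.4 to 92.7) and 58 of 72 (80.6%, 70.0 to 88.0) of the SKBG-1(S) peaks. The intervals cover counting error only and treat each peak as independent. Many peaks of the gene adjoin each other, so the intervals are likely too narrow and do not measure how far lists vary. The SKBG-1(R) lists lay below the other 4, by 34.6 percentage points from DMSO and 26.5 from SKBG-1(S) in the means (exact two-sided permutation p = 0.33 for each, the smallest that 2 lists against 2 can give). SKBG-1(S) and DMSO differed by 8.1 points, with overlapping lists (exact p = 1.0).

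The median distance of SLC7A5 peaks from the gene start moved with that share. It was 23282 and 23020 nt under DMSO, 17806 and 20635 nt under SKBG-1(R) and 23143 and 23027 nt under SKBG-1(S). The mean was 19220 ± 2000 nt (SD, n = 2) under SKBG-1(R), against 23151 ± 185 nt under DMSO and 23085 ± 82 nt under SKBG-1(S), and each of these differences had an exact permutation p of 0.33. Among genes with at least 3 peaks in each of the 4 lists compared, the medians of both SKBG-1(R) lists lay nearer to the start than both DMSO medians in 5 of 45 genes (11.1%), SLC7A5 among them. Against SKBG-1(S) they did in 10 of 78 genes (12.8%), SLC7A5 again among them. Proximal introns held 0% to 4.0% of the gene's peaks in each list, and the groups overlapped in that share (exact permutation p = 1.0 for each pair).

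The difference in the mean intron 2 share was smaller when only the peaks with the highest −log10 p were kept. SKBG-1(R) replicate 1 then kept few SLC7A5 peaks, all of them in intron 2. When every list was limited to its 669 strongest peaks, SKBG-1(R) differed from DMSO by -5.18 points and from SKBG-1(S) by -7.70 points, with 1 SLC7A5 peak left in SKBG-1(R) replicate 1. In the replicate 2 lists, intron 2 then held 51 of 67 SKBG-1(R) peaks, 32 of 37 DMSO peaks and 30 of 31 SKBG-1(S) peaks. A −log10 p of at least 5 left DMSO replicate 1 with 0 and SKBG-1(R) replicate 1 with 2 SLC7A5 peaks. SKBG-1(R) then differed from DMSO by 0.44 points and from SKBG-1(S) by -7.06 points. All SLC7A5 peaks of the replicate 2 lists passed that limit. Their shares stayed at 80.0% (DMSO), 60.9% (SKBG-1(R)) and 80.6% (SKBG-1(S)). With a log2 enrichment of at least 4 the difference was -12.74 points from DMSO and -24.55 points from SKBG-1(S). DMSO replicate 1 again held 0 SLC7A5 peaks there. The difference was larger with peaks under 50 nt apart joined, at -40.55 points from DMSO and -30.44 points from SKBG-1(S). When each list was left out it ran from -44.56 to -24.56 points and from -31.94 to -21.06 points.

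No member passed the gene test in any comparison. The test was limma on log2 peaks per 10000, over 479 genes with at least 10 peaks, and called 0 genes (0.0% of those tested) for SKBG-1(R) against DMSO, 0 (0.0%) for SKBG-1(S) against DMSO and 0 (0.0%) for SKBG-1(R) against SKBG-1(S) at an adjusted p of 0.05. At an unadjusted p of 0.05 the 3 comparisons had 15, 6 and 5 genes, and none of the 3 transporters was among them. Without SKBG-1(R) replicate 1 limma called 23 genes against DMSO and 24 against SKBG-1(S), with no transporter among them; SKBG-1(R) is then a single list, assumed to vary like the other groups. Both compounds were compared with the same DMSO lists, so these comparisons are not independent of each other.

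For SLC7A5 the levels were 212.0 ± 43.2 peaks per 10000 (SD, n = 2) under SKBG-1(S), 142.7 ± 9.6 under DMSO and 106.5 ± 63.7 under SKBG-1(R). The SKBG-1(S) lists did not overlap with the DMSO lists, the DMSO and SKBG-1(R) lists overlapped, and no pair of groups passed limma. SKBG-1(R) minus DMSO was -0.54 on the log2 scale (SE 0.83, 95% interval -2.26 to 1.19, limma adjusted p = 0.993). SKBG-1(S) minus DMSO was 0.54 (SE 0.83, -1.18 to 2.27, adjusted p = 1.0). The stereoisomers, at the same dose and time, differed by -1.08 (R minus S, SE 0.83, -2.80 to 0.65, adjusted p = 0.995), an interval that holds a difference of either sign. Both SKBG-1(S) lists lay above both DMSO lists in 13.4% of tested genes, and both SKBG-1(R) lists lay below both SKBG-1(S) lists in 16.3%; SLC7A5 was among each. The sign for SKBG-1(R) against DMSO is not settled: it was 0.08 with TMM scaling, 1.17 without scaling and 0.09 without SKBG-1(R) replicate 1. Without scaling, R minus S was 0.21.

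**Figure D4:**
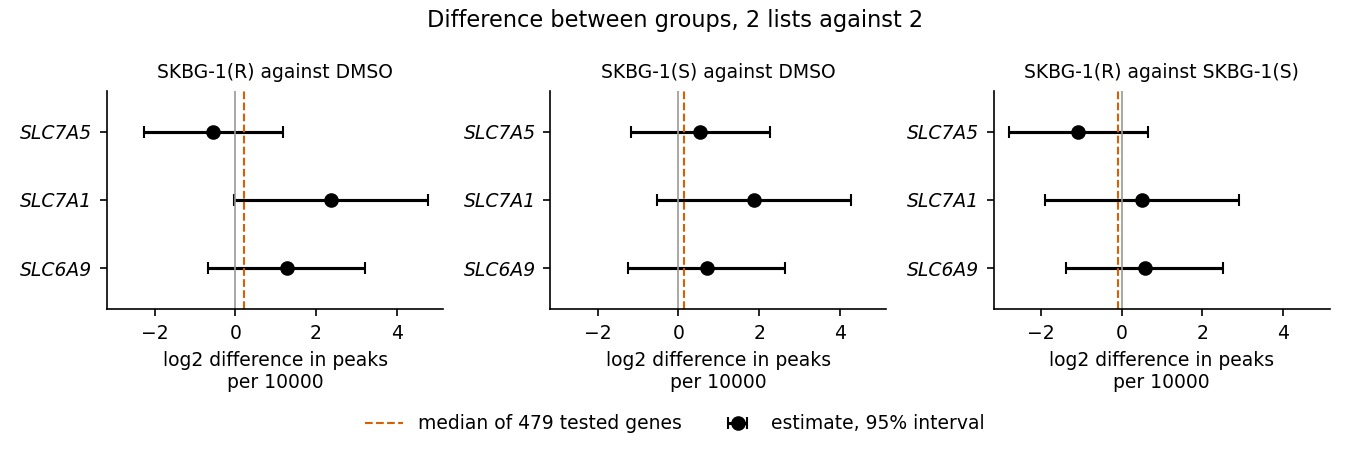
Log2 differences in peaks per 10000 for the 3 genes in each comparison (points, limma estimates), with 95% intervals as bars and the median of the 479 tested genes as a dashed line. Each interval includes 0, and that of SLC7A1 for SKBG-1(R) against DMSO runs from -0.04 to 4.78.

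SLC7A1 (ENSG00000139514; chromosome 13, 29509410 to 29595688, minus strand, GRCh38), the arginine and lysine carrier, held peaks with either compound and none under DMSO. It had 0 and 0 peaks in the DMSO lists, 10 and 8 in the SKBG-1(R) lists and 3 and 2 in the SKBG-1(S) lists. Per 10000 peaks this was 0 and 0, 51.2 and 5.4, and 24.3 and 5.0. All 4 compound lists lay above both DMSO lists, while the replicates of each compound differed more from each other than the compounds did. A peak in all 4 compound lists and in no DMSO list was found for 11 of the 479 tested genes (2.3%), SLC7A1 among them.

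In the gene test SLC7A1 stood at 2.37 on the log2 scale for SKBG-1(R) minus DMSO (SE 1.16, 95% interval -0.04 to 4.78, unadjusted p = 0.0536, limma adjusted p = 0.993), number 16 of 479 by p. SKBG-1(S) minus DMSO was 1.87 (SE 1.16, -0.54 to 4.28, adjusted p = 1.0), number 15 by p. With 0 peaks under DMSO, SLC7A1 reached the 10 peaks needed for the test through the compound lists alone. It could therefore not lie below DMSO, and its place by p is no evidence of a difference. The stereoisomers differed by 0.50 (R minus S, SE 1.16, -1.91 to 2.91, adjusted p = 0.995). Against lists at 0 these values depend on the prior count, and over the alternatives tried they ran from 1.13 to 4.02 for SKBG-1(R) and from 1.08 to 3.46 for SKBG-1(S). R minus S turned to -0.74 without SKBG-1(R) replicate 1 and to -0.29 without SKBG-1(S) replicate 2. Both SKBG-1(R) lists lay above both DMSO lists in 10.4% of tested genes, among them SLC7A1 and SLC6A9.

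All 23 peaks of SLC7A1 lay in intron 1, of 41555 nt, and 14 of them (60.9%) within 1500 nt of the gene start. By list these were 5 of 10 and 4 of 8 under SKBG-1(R) and 3 of 3 and 2 of 2 under SKBG-1(S). Over all genes 21.8% of peaks lay within that distance, with 15.9% to 42% in single lists. The other 9 peaks, all from SKBG-1(R), reached to 29878 nt from the start, and each list had its own.

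One place carried the peaks shared by the compound lists. The region at 29595206 to 29595391 on chromosome 13, 297 to 482 nt from the gene start and just past exon 1, held a peak in both SKBG-1(R) and both SKBG-1(S) lists and in neither DMSO list. Over all genes 49 of 16419 regions (0.298%) had that pattern. The SKBG-1(S) replicate 1 peak from 29595290 to 29595359, with an authors' log2 enrichment of 3.49 and a −log10 p of 3.17, lay inside the stretch covered in each of the other 3 lists, so these lists share a site. Over that stretch SKBG-1(R) replicate 1 had a peak with a log2 enrichment of 3.16 (−log10 p 9.04). SKBG-1(R) replicate 2 had adjoining peaks of 3.12 (−log10 p 19.35) and 3.08 (28.42), and SKBG-1(S) replicate 2 had a peak of 3.16 (8.76). These peaks lie near the lower limit of 3 set for a peak. A second region, 29594849 to 29594931, was held by SKBG-1(R) replicate 1 (log2 enrichment 4.42) and SKBG-1(S) replicate 1 (3.16).

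**Figure D5:**
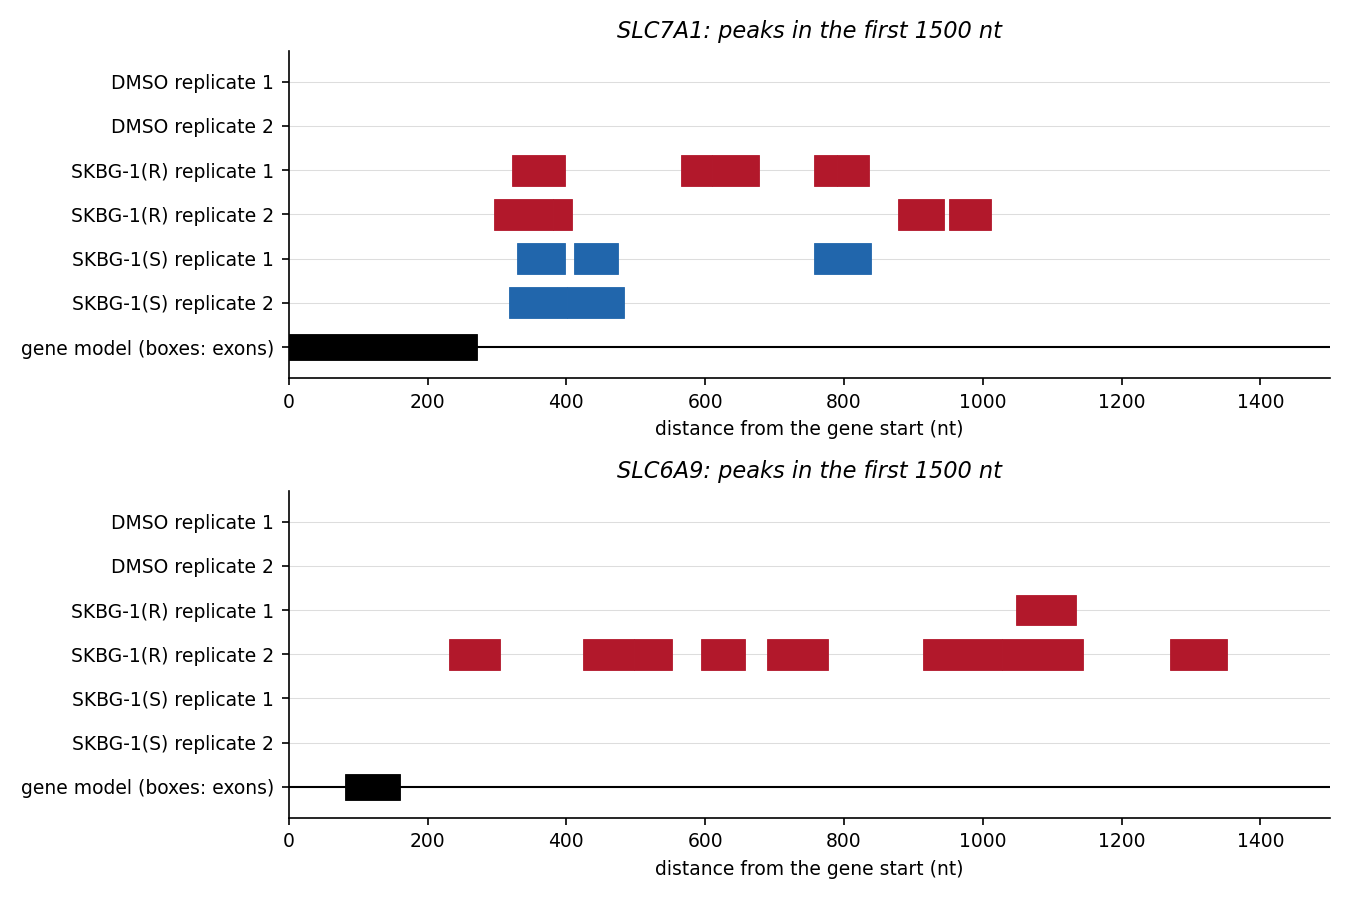
NONO peaks in the first 1500 nt of SLC7A1 (top) and SLC6A9 (bottom) by list, against the distance from the gene start in nt, with exon 1 of the reference transcript as a black box. All 4 compound lists hold a peak 297 to 482 nt from the start of SLC7A1 and the DMSO lists hold none, and 9 of 16 SLC6A9 peaks lie in this stretch, all in the SKBG-1(R) lists.

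SLC6A9 (ENSG00000196517; chromosome 1, 43991500 to 44031467, minus strand, GRCh38), the glycine carrier, had the fewest peaks. It held 0 and 0 under DMSO, 1 and 12 under SKBG-1(R) and 0 and 3 under SKBG-1(S), or 0 and 0, 5.1 and 8.1, and 0 and 7.6 per 10000 peaks. Both SKBG-1(R) lists lay above both DMSO lists, SKBG-1(S) overlapped with DMSO at 0, and 12 of 16 peaks came from the longest list, without which 4 remain. SLC6A9 too reached the 10 peaks needed for the gene test through the compound lists alone, so it could not lie below DMSO. The log2 differences were 1.28 (SE 0.94, 95% interval -0.67 to 3.23) for SKBG-1(R) minus DMSO, 0.71 (SE 0.94, -1.24 to 2.65) for SKBG-1(S) minus DMSO and 0.57 (SE 0.94, -1.37 to 2.52) for R minus S. The limma adjusted p-values were 0.993, 1.0 and 0.995. Against lists at 0 these values too depend on the prior count: SKBG-1(R) minus DMSO was 2.74 with a prior count of 0.5 and 0.65 with one of 5, and ran from 0.57 to 2.74 over the alternatives tried. SKBG-1(S) minus DMSO ran from 0.0 to 1.47, and was 0.0 without SKBG-1(S) replicate 2 and 1.41 without replicate 1. R minus S was -0.13 without SKBG-1(S) replicate 1.

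The SLC6A9 peaks also gathered at the gene start, but almost only in SKBG-1(R) replicate 2. Intron 1, of 6943 nt, held 9 of the 16 peaks, the 1 peak of replicate 1 and 8 of 12 of replicate 2, all between 232 and 1352 nt from the start. The region at 44030323 to 44030439 on chromosome 1 was in both SKBG-1(R) lists, with a log2 enrichment of 3.63 and 3.60, and in no other list. Over all genes 140 of 16419 regions (0.853%) were held by both SKBG-1(R) lists alone. It adjoins the peak printed above as the intron 1 sequence, which had 3.53 in replicate 2. The highest SLC6A9 value, 4.40, was at 44030690 to 44030778. The peaks of SKBG-1(S) replicate 2 lay elsewhere, 14944 to 17134 nt from the start, with a log2 enrichment of 3.02 to 3.34, and by the authors' classes 1 of these 3 was in a 5′ UTR. The coding exon peak printed above had 3.04, and the distal one 3.36.

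The peaks of the 3 transporters lay in different parts of their genes. SLC7A5 held 0 of its 399 peaks within 1500 nt of the start, while SLC7A1 held 14 of 23 and SLC6A9 9 of 16, 8 of these in SKBG-1(R) replicate 2. Peaks of 1 gene share the transcript they were called on and are not replicates, so these shares are a description.

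The gene lists of amino acid supply named here were drawn up with earlier results of these lists known, so their counts are no independent evidence. Of 51 amino acid transporters 4 held a peak and 0 of 4 tested passed the limma test in any comparison. Besides the 3 genes above this was SLC38A10, a carrier of glutamine and its relatives, with 0 and 8 peaks in the DMSO lists, 0 and 86 in the SKBG-1(R) lists and 0 and 6 in the SKBG-1(S) lists. Its peaks were all in replicate 2 lists, a pattern unlike that of SLC7A5.

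Of 20 aminoacyl-tRNA synthetases, which charge tRNAs with amino acids, 1 held peaks. This was CARS, the cysteine enzyme, with 0 and 0, 4 and 23, and 2 and 8 peaks in the DMSO, SKBG-1(R) and SKBG-1(S) lists, the same absence from DMSO as SLC7A1. Of 28 enzymes of amino acid synthesis and one-carbon metabolism 2 held a peak, MTHFD1L with 2 and GPT2 with 1, and none was tested. Of 40 genes of mTORC1 and its amino acid sensing 7 held a peak, and 0 of 2 tested passed. RHEB, the GTPase that switches mTORC1 on, held 2 and 6 peaks under DMSO, 6 and 7 under SKBG-1(R) and 3 and 5 under SKBG-1(S), and TFEB, a transcription factor of lysosome genes, held 18 in all, 15 of them in SKBG-1(R) replicate 2. RHEB was present in every list.

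Of 21 genes of the integrated stress response, which is set off by amino acid shortage, 3 held a peak and 0 of 2 tested passed. ATF3, one of its transcription factors, held 0 and 0, 1 and 5, and 2 and 3 peaks, and its log2 difference from DMSO was 0.94 (R) and 1.80 (S). TRIB3, a pseudokinase, held 0 and 1, 9 and 13, and 8 and 8. SESN2, a leucine sensor counted in this list and the one before, held 5 peaks, 4 of them in SKBG-1(S) replicate 2. A further 22 gene names that begin with SLC, not all of them carriers, held a peak, 4 were tested and 0 passed. The most were 59 in SLC12A7, a potassium and chloride carrier, and 37 in SLC19A1, a folate carrier, of which SKBG-1(R) replicate 2 held 57 and 36.

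The genes whose log2 peaks per 10000 ran most like those of each transporter over the 6 lists are given by Pearson's r as a description, over lists that share treatments and lengths. For SLC7A5 they were PKD1P6 (0.95), SPDEF (0.902), MAFK (0.86), CTBP1 (0.847) and TNK2 (0.844). PKD1P6 is a pseudogene, whose reads may be shared with PKD1 and its other copies. For SLC7A1 they were RAPGEF1 (0.963), ZNF710 (0.941), ACTN4 (0.931), MTMR3 (0.916) and TRIB3 (0.915). For SLC6A9 they were MAFG (0.944), RP11-440L14.1 (0.909), MYO18A (0.895), PISD (0.885) and TRABD (0.882). ACTN4, an actin crosslinker, held 0 and 0 peaks under DMSO, 22 and 10 under SKBG-1(R) and 2 and 7 under SKBG-1(S). It was picked for its likeness to SLC7A1 over these lists, so its absence from DMSO follows from that choice.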

How the data were processed

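NONO eCLIP was made from 22Rv1 cells in 12 libraries, 6 immunoprecipitations and 6 inputs, grouped by sample titles. The submitters' processing notes name cutadapt 1.9, STAR 2.4.0i and the builds hg19, GRCh38 and hg38; which peak caller was used is not given in the sources used here. One list per replicate, called on that replicate, was deposited by the authors. Its deposited values are a −log10 p against input (3.0 to 400.0, a cap that 47 peaks reached) and a log2 enrichment (minimum 3.0), per the values in the lists. Of 9850 transcripts named in the lists, 9797 (99.5%) matched GENCODE 29 (GRCh38) within 1 nt. Introns are those of the reference transcript of each gene.

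Peaks were counted by the gene name in the authors' annotation, with 344 peaks under joint names kept apart and 60 named intergenic left out of the gene test. Distances run from the gene start to the middle of the peak. The gene test used limma 3.58.1 (R 4.3.3, trended prior variance) on log2 peaks per 10000 with a prior count of 2 scaled to list size, all 6 lists in 1 fit, 479 genes with at least 10 peaks, Benjamini-Hochberg at 0.05, and was tested on simulated lists. Genes that passed the filter through high groups had to differ, so counts over members are not evidence. Single values were compared by exact permutation, 2 lists against 2, two-sided. Sequences were read from GENCODE 29 transcripts. The deposited lists give no depth; the number of peaks, 669 to 14847, limits precision. Other tools were Python 3.11.15, pandas 2.3.3 and scipy 1.17.1.

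The members, gene lists, tests and alternatives were chosen with earlier results of these data known. Named were the members, the 5 genes most like each, up to 6 genes with most peaks of each list where they add to the account, regions in all 6 lists and regions of 1 group. The share in intron 2, the windows along SLC7A5, the comparison with other peaks and the removal of the longest list were added after the peaks were seen. The lists of cell type markers are not reported here.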

Additional observations from a re-analysis of the deposited data

How the results depend on the processing

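For SLC7A5 in SKBG-1(R) against DMSO, -0.54 on the log2 scale became 1.48 with a log2 enrichment of at least 4, 0.89 with a −log10 p of at least 5, 0.08 with TMM scaling and 1.17 without scaling, and ran from -1.16 to 0.09 when each list was left out. Against SKBG-1(S) it was 0.21 without scaling. R minus S ran from -0.74 to 1.75 for SLC7A1 and from -0.13 to 1.28 for SLC6A9 when each list was left out. The median of all tested genes for SKBG-1(R) minus DMSO was 0.23, 0.49 with TMM scaling and 1.10 without scaling, so SLC7A5 lay below it under TMM (0.08 against 0.49) and near it without scaling (1.17 against 1.10). Genes called for SKBG-1(R) against DMSO numbered 0, and 1 with summed peak widths, 1 with peaks under 50 nt apart joined, 1 with joint names counted for each gene and 1 with the replicate block. Leaving out each list gave 0 to 23, and 0 to 24 for SKBG-1(R) against SKBG-1(S), both highest without SKBG-1(R) replicate 1, where the lone list is assumed to vary like the other groups. No transporter passed in any setting in which it was tested, and SLC7A1 and SLC6A9 had too few peaks to be tested with a log2 enrichment of at least 4 and with lists of equal size.

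The replicate numbers were treated as sharing only a number, since the labels name no common batch and 2 numbers are too few to decide it from the data. The deviations of same-numbered lists correlated at 0.54 (DMSO with SKBG-1(R)), 0.58 (DMSO with SKBG-1(S)) and 0.42, with all replicate 2 lists longer. The replicate block cannot change a difference between groups in this balanced design. With it SLC7A1 in SKBG-1(R) against DMSO had an adjusted p of 0.356 (limma).

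Regions of the members in all 6 lists numbered 5, and 0 with a log2 enrichment of at least 4, 0 with a −log10 p of at least 5, 1 with lists of equal size and 2 when an overlap needed 0.5 of the shorter peak. A −log10 p of at least 5 left SKBG-1(R) replicate 1 with 2 SLC7A5 peaks. At that limit the percentage of SLC7A5 peaks in intron 2 differed between SKBG-1(R) and DMSO by 0.44 points. It differed by -40.55 points with peaks under 50 nt apart joined, and by -44.56 to -24.56 points when each list was left out. For SKBG-1(S) minus DMSO it was 11.81 with a log2 enrichment of at least 4, 7.50 with a −log10 p of at least 5 and 2.51 with lists of equal size, and -18.06 to 1.94 when each list was left out. The median distance of SLC7A5 peaks from the start for SKBG-1(S) minus DMSO was 408.62, 251.25 and 179.12 nt under the same settings and -197.5 to 64.75 nt when each list was left out. The proximal intron share for SKBG-1(R) minus DMSO was 0.69 points with a log2 enrichment of at least 4 and 0.67 with peaks joined, and -2.22 to 1.78 when each list was left out. For SKBG-1(S) minus DMSO it was -3.31 with a −log10 p of at least 5, and -1.64 to 2.36. For R minus S it was 0.69, 1.08 with a −log10 p of at least 5 and 0.43 with peaks joined, and -2.36 to 1.19. The cause of these shifts was not tested. The limits on log2 enrichment and on −log10 p each left DMSO replicate 1 with 0 SLC7A5 peaks. With lists of equal size that list kept 10, and no DMSO list enters R minus S. Of 304 alternative values 263 were counted as unchanged, 30 changed sign and 11 counts moved. Many of the 263 could not change sign, such as gene differences after a list of a group not compared was left out. Differences of 0.0 also counted as unchanged. The 263 are therefore no measure of how firm the results are. Number of peaks limits precision: the median 95% interval of a tested gene reached 2.23 to each side on the log2 scale.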
